A study of Mus musculus with 10 samples.

Results

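Pax genes encode transcription factors that carry a paired domain, a DNA-binding domain named after the Drosophila gene paired. The mouse has 9 of them, Pax1 to Pax9. All 9 were taken from the gene table of RefSeq for GRCm38, the assembly that mm10 corresponds to, as 9 of 20665 autosomal protein-coding genes. A Pax locus here is the gene with 3000 bp on each side, and it was divided into tiles of 1000 bp. The 9 loci held 2115 of the 2137824 cytosine positions measured in all. They touched 186 tiles with at least 1 position, of which 156 had 3 or more positions and are called measured. The 30 remaining tiles held 1 or 2 positions and are left out of the counts of tiles. In GRCm38 the genes span Pax1 chr2:147361930-147375049, Pax2 chr19:44746601-44838269, Pax3 chr1:78101267-78197136, Pax4 chr6:28442334-28449340, Pax5 chr4:44524748-44710694, Pax6 chr2:105668896-105698410, Pax7 chr4:139737059-139833530, Pax8 chr2:24420551-24475599, and Pax9 chr12:56691693-56712824.

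Pax factors act as switches of organ formation, and most of them are known for the organ that fails to form or is malformed when the gene is lost. By sequence they fall into the subgroups Pax1/Pax9, Pax2/Pax5/Pax8, Pax3/Pax7 and Pax4/Pax6, which differ in whether a homeodomain, a part of one or none accompanies the paired domain. In mammals, cytosines are methylated mainly where a C is followed by a G (a CpG), and the CpG-rich start regions of most genes are largely free of methylation whether the gene is active or not.

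The series holds reduced representation bisulfite sequencing of mouse embryos at embryonic day 7.5, around gastrulation, with 5 samples titled control and 5 titled arsenic. Dose, route and form of the arsenic, the strain, the sex, and whether extraembryonic tissue was kept are not given in the labels. In this assay unmethylated cytosines are read as thymine, and mainly CpG-rich fragments are sequenced. The deposited table has 10 numbered sets of counts, called library columns below. No column number matches a single sample title, so 0 of 10 columns could be given a group, and arsenic was not compared with control. Each value is therefore given over the 10 columns with its lowest, median and highest column. A methylation level is the summed methylated calls divided by the summed calls, in percent. Because whole samples were measured, a few fully methylated cells and light methylation of many cells cannot be told apart.

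The summed coverage ranged from 73509873 to 127743904 calls per column, and the mean level of autosomal positions from 40.1 to 42.7%. Every position had at least 10 reads in every column. At the Pax loci 1067 positions lay on the plus strand and 1048 on the minus strand. The 598 CpGs measured on both strands had mean levels of 24.7 and 24.6%, and the strands differed by a median of 3.18 percentage points. DNA methylation cannot check the tissue through expression of markers. Of 9 marker genes of other cell types, 6 were measured within 1000 bp of an annotated start. Cdx2 and Eomes, trophoblast regulators, were at 0.915 and 1.73%, Runx1 and Cd34, blood genes, at 0.958 and 9.92%, and Hnf4a, a visceral endoderm gene, at 52.5%. Elf5, a trophoblast gene that is methylated in embryonic lineages, was at 34.2% with columns from 22.9 to 40.3%. The part of mixed tissue in the Pax levels was not tested.

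The promoter sequences on which the counts fall show which CpGs at a start the assay read, and how the level differs from CpG to CpG. They are RefSeq promoters of GRCm38.p6, from 250 bases before to 50 bases after the annotated start. Sequence tables paired 7 of the 9 genes with 10 starts, and 5 starts in 4 genes held measured positions. Each is written 5′ to 3′ along the gene's strand, and capitals mark the CpGs that were measured. The Pax1 promoter lies on the plus strand at chr2:147364744-147365043. The second and the third Pax2 promoters lie on the plus strand at chr19:44755502-44755801 and chr19:44756656-44756955. The second Pax6 promoter lies on the plus strand at chr2:105682213-105682512, and the Pax7 promoter on the minus strand at chr4:139832919-139833218.
Pax1: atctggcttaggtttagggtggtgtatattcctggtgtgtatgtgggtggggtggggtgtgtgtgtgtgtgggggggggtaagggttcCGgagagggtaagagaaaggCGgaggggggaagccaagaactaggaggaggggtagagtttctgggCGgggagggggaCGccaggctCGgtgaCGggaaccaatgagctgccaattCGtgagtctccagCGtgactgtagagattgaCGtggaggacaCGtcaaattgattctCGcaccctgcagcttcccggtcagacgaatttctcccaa
Pax2 start 2: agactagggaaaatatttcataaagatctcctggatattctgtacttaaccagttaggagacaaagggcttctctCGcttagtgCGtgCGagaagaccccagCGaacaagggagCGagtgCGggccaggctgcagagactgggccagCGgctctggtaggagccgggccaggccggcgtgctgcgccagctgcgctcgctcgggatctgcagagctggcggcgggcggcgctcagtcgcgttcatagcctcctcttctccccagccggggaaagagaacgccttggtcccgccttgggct
Pax2 start 3: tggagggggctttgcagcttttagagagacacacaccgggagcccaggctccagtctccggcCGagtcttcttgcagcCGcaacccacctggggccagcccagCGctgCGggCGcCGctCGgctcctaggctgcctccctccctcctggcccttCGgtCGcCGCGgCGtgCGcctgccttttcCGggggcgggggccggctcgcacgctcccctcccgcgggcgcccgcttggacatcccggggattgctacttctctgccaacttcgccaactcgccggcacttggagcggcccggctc
Pax6 start 2: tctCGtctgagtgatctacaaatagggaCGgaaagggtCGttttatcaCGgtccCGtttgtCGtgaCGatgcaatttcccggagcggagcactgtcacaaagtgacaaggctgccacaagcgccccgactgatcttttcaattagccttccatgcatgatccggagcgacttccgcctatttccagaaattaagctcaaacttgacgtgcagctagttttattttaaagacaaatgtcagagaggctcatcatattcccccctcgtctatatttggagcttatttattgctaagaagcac
Pax7: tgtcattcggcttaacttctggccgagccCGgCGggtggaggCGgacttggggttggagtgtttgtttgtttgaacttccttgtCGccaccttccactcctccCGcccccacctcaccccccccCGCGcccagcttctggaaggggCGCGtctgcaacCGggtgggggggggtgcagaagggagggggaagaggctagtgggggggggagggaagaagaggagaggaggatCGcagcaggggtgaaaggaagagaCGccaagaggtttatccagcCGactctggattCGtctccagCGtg

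These 5 promoters were at 9.56% (Pax1), 9.87% (Pax2 start 2), 1.91% (Pax2 start 3), 15.4% (Pax6 start 2) and 6.45% (Pax7), each summed over the columns. Thus 4 of 5 were under 10%, while 88.1% of the 7724 promoters of autosomal protein-coding genes with 3 or more measured positions were. The median promoter of all those genes was at 1.18%, below each of the 5. In the Pax1 promoter 11 of 13 CpGs were measured, and their level varied along the sequence. The 5′-most measured CpG, at base 89 counted from 1 at the 5′ end, was at 26.4% of 512 calls, and the plus strand of the CpG at base 155 was at 1.44% of 695 calls. From base 176 to base 205 the levels lay between 9.78 and 15%, and from base 218 on between 5.04 and 10%. In the Pax7 promoter 15 of 17 CpGs were measured. The one at base 159 stood at 30.1% of 385 calls, with columns from 18.6 to 47.1%, and the one at base 30 at 16.0%. The other 13 lay between 0.435 and 9.73%.

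Within Pax2, the third start had 14 of 30 CpGs measured and columns from 0.701 to 4.21% with a median of 1.41%. The second start had 7 of 23 measured and columns from 8.22 to 14.6% with a median of 9.82%. The columns of both starts did not overlap, so the level was lower at the third start in 10 of 10 columns. Within the third start, 13 of the 14 CpGs were at 3.01% or less, and the 3′-most, at base 184, was at 6.74%. The second Pax6 start had 7 of 16 CpGs measured, all within its first 67 bases, and its columns were spread most, from 5.00 to 32.1% with a median of 15.7%. That promoter rests on 1248 calls, and its 95% Wilson interval is 13.5 to 17.5%. Wilson intervals here cover counting error only and treat the calls of a read as independent, which makes them too narrow.

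Summed over whole loci, the Pax genes ran from 15.3% for Pax1 to 36.9% for Pax5. Pax1 had 14.1, 15.3 and 16.8% in its lowest, median and highest column. Pax6 had 17.7, 19.8 and 24.1%, Pax9 18.5, 21.3 and 24.1%, and Pax7 19.3, 21.7 and 22.9%. Pax2 had 21.7, 23.8 and 25.4%, and Pax3 24.0, 27.3 and 29.7%. Pax8 had 28.2, 31.7 and 35.8%, Pax5 33.2, 37.6 and 40.1%, and Pax4, with 4 positions only, 19.7, 30.6 and 49.5%. In this order Pax1 lay below Pax6 in every column without overlap, and every further pair of neighbours overlapped between columns. The median Pax locus was at 23.6%, beside 36.2% for the 17474 loci of all autosomal protein-coding genes with a position, whose middle 50% lay between 17.6 and 52.6%. The loci differ in what the assay reached, from 0.308 positions per kb at Pax4 to 7.94 at Pax6, so their levels compare different parts of genes.

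**Figure D1:**
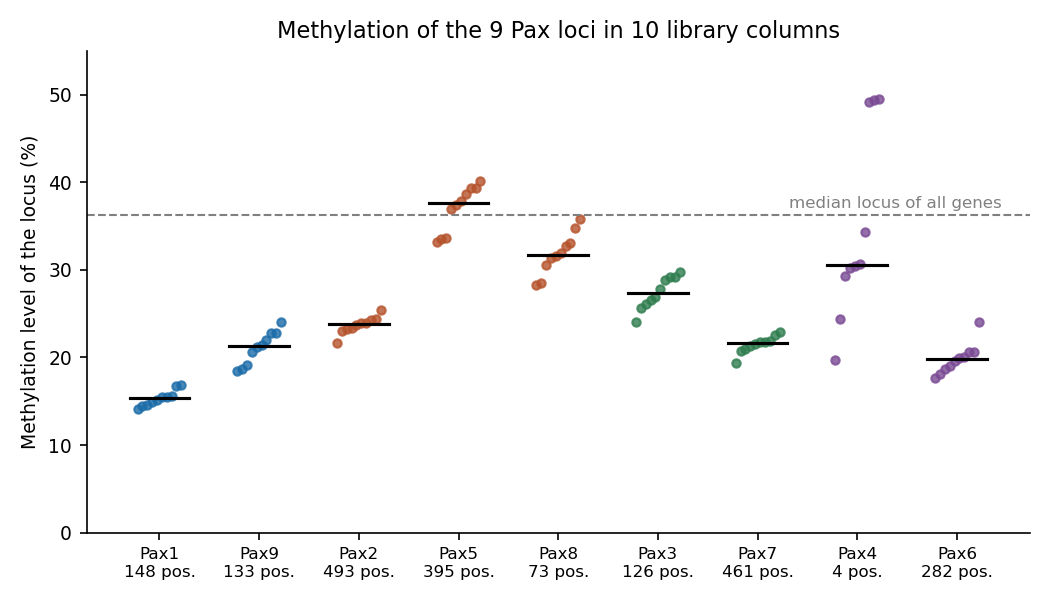
Methylation level in percent of the 9 Pax loci (y axis), grouped by subgroup (colour), with the number of measured positions under each name. Each point is 1 of 10 library columns in order of value, the black bar is their median, and the dashed line is the median locus of all genes at 36.2%. Pax1 is lowest at 14.1 to 16.8%, and Pax4, with 4 positions, is spread from 19.7 to 49.5%.

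Most Pax tiles were neither unmethylated nor highly methylated. Levels of 10 to under 50% were found in 99 of 156 measured Pax tiles (63.5%), beside 20.8% of the 109002 tiles of all autosomal protein-coding genes. Levels under 10% were found in 17 Pax tiles (10.9%), beside 16.9%, and levels of 50% or more in 40 (25.6%), beside 62.3%. The median tile was at 28.2% at the Pax loci and at 57.3% over all genes. Densely measured tiles, those with 10 or more measured positions, were counted separately. A CpG measured on both strands counts once per strand, so this limit reflects what the assay reached as well as CpG content. Their median was at 21.2% at the Pax loci and at 47.1% over all genes. Of 71 such Pax tiles, 42 were at 10 to under 30% (59.2%), beside 8.91% of 45271 tiles over all genes. Of the others, 13 were under 10% (18.3%), beside 34.2%, and 9 were at 50% or more (12.7%), beside 47.7%. The limits of 10 and 30% were chosen after the levels were seen. With limits of 5 and 35% the shares were 70.4 and 15.4%, and with 15 and 30% they were 42.3 and 5.75%, for Pax and for all genes in turn. Tiles of 1 locus are not replicates, and no test was made.

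**Figure D2:**
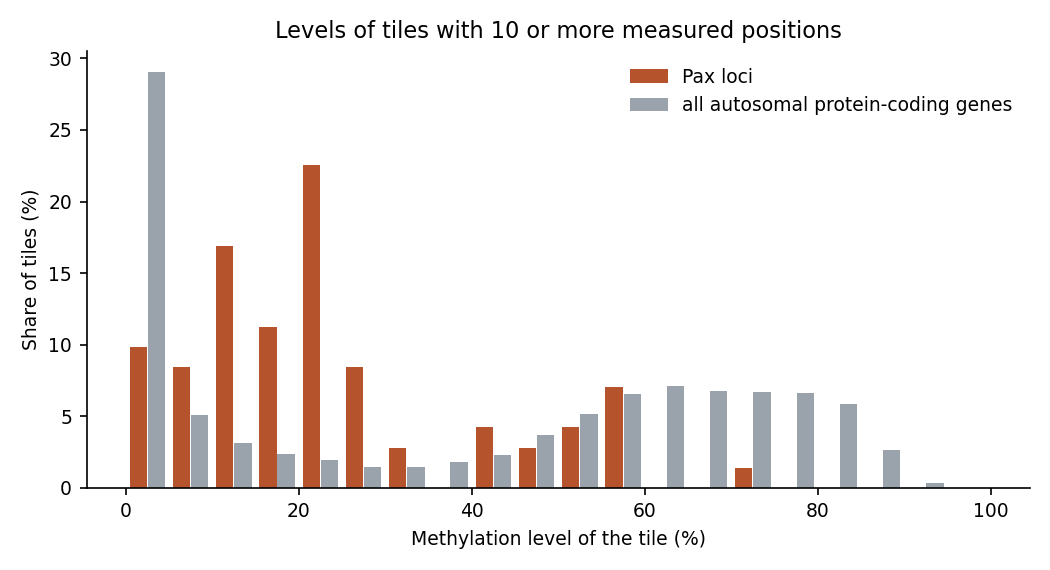
Share in percent (y axis) of tiles with 10 or more measured positions by methylation level in steps of 5% (x axis), for 71 tiles of the Pax loci (orange) and 45271 tiles of all autosomal protein-coding genes (grey). The grey bars are highest below 5% (29.1% of tiles) and broad above 50%, and the tallest Pax bar is at 20 to 25% (22.5% of tiles).

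Within the 42 tiles at 10 to under 30%, most single positions were intermediate too. Their 959 positions had a median of 16.3%. Of these positions 28.4% were under 10%, 70.7% were at 10 to 50%, and 0.938% were over 50%, with a highest value of 60.2%. Over all 1591 positions in densely measured Pax tiles, 39.7% were at 10 to 30%, beside 8.24% of 1077800 positions in such tiles of all genes. Positions under 10% made up 36.0% at the Pax loci and 53.4% over all genes, and positions over 50% made up 9.49 and 30.4%.

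**Figure D3:**
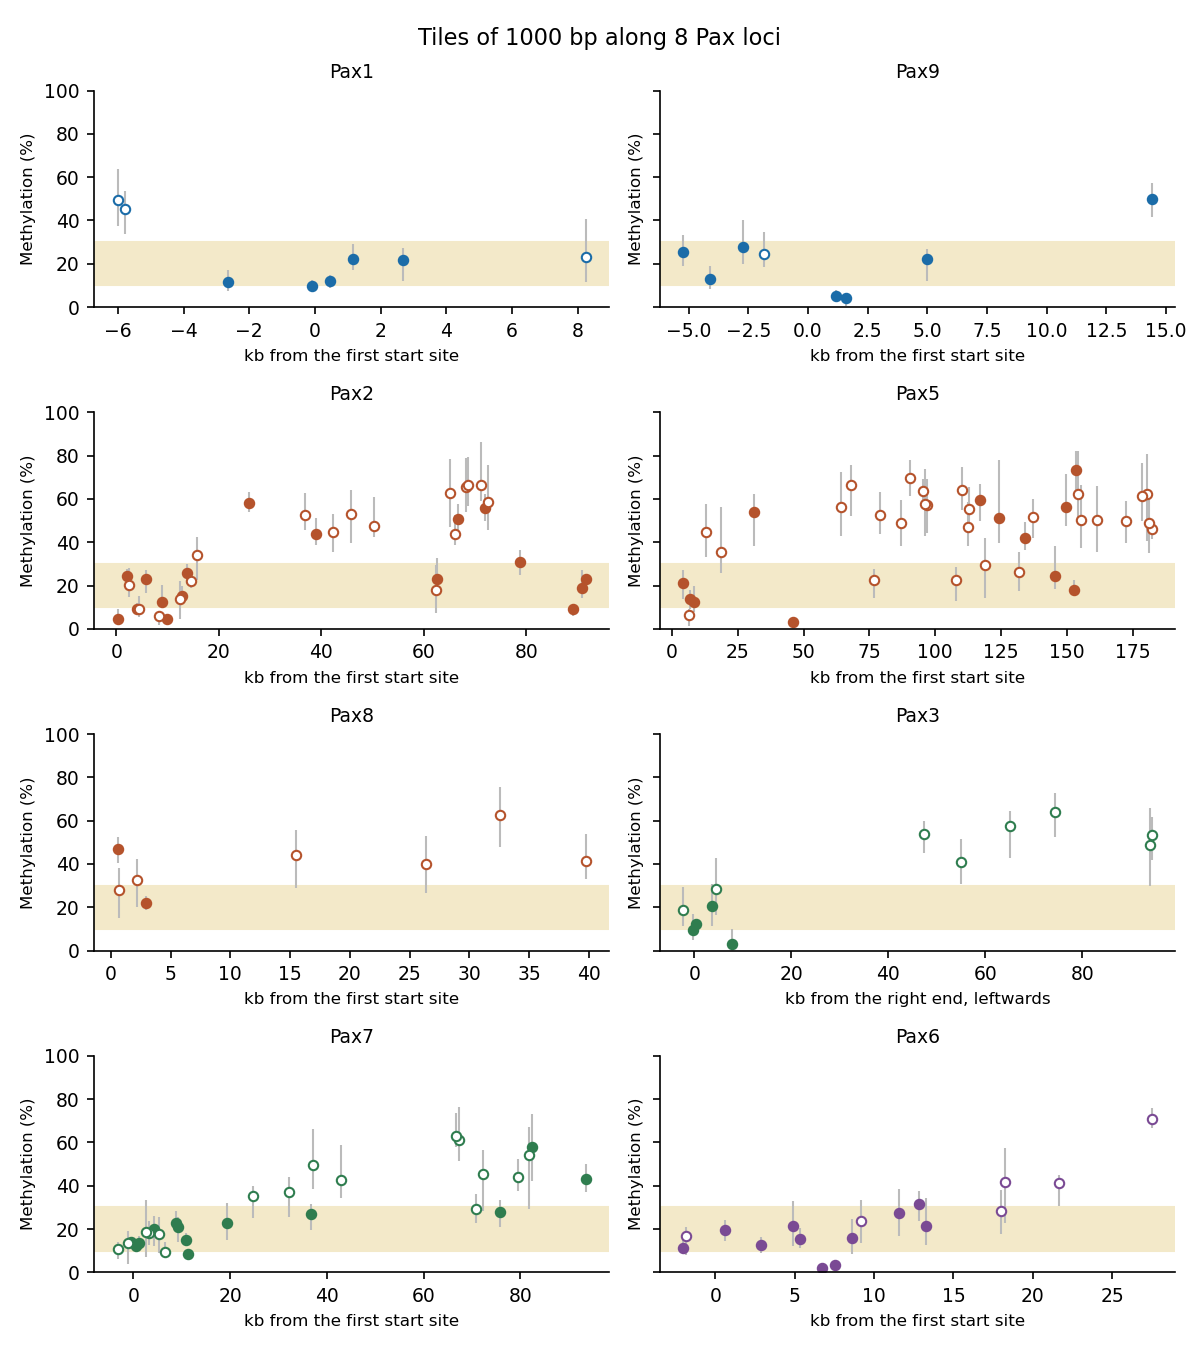
Methylation level in percent (y axis) of measured tiles along 8 Pax loci, by distance in kb from the first annotated start along the gene (x axis), or for Pax3 from the right gene end leftwards. Filled points have 10 or more positions and open points 3 to 9, grey bars span the 10 library columns, and the shaded band is 10 to 30%; the tiles around the starts of Pax1, Pax2, Pax3, Pax7 and Pax9 lie in or below the band, and farther inside the long genes tiles above the band stand beside tiles in or below it, such as the Pax5 tile at 46.1 kb with 3.25%.

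Pax1 and Pax9 pattern the vertebral column and the pharyngeal pouches, and Pax9 is also needed for teeth and thymus. Neither had a measured tile at 50% or more, of 16 tiles, and their median tile was at 22.2%. At Pax1 the lowest tile, chr2:147364001-147365000, held the start and had 7.09, 10.2 and 12.6% in its lowest, median and highest column. The neighbouring tile downstream had 78 positions and columns from 8.88 to 14.7%. The highest Pax1 tile, at -6.01 kb from the start, was at 49.6% with columns from 37.6 to 63.6%. The tile with the widest spread, chr2:147373001-147374000, had columns from 11.4 to 40.7% on 6 positions. At Pax9 the lowest tile, chr12:56697001-56698000, 1.59 kb past the start, had 0.613, 4.24 and 5.59%. The highest, chr12:56709001-56710000, near the far end, had 41.8, 51.3 and 57.1%. Between these in level, 4 tiles upstream of the Pax9 start were at 13.0 to 27.6%. That annotated start, chr12:56695471, lies inside the gene span, which begins at 56691693, so some of these tiles lie within the gene. The annotated Pax1 start, chr2:147364994, likewise lies inside a gene span that begins at 147361930. The RNA genes Gm15524 and Gm46352 and a part of Slc25a21 also overlap the Pax9 locus. The widest Pax9 tile, chr12:56692001-56693000, had columns from 20 to 40.3%. At both genes the lowest measured tile thus lay at or just past the start. The columns of the lowest and the highest tile did not overlap, but these tiles were picked by their levels.

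Pax2, Pax5 and Pax8 act in kidney, B cell and thyroid formation, and Pax2 and Pax5 also at the boundary of midbrain and hindbrain. At their loci 31 of 81 measured tiles were at 50% or more (38.3%, beside the 62.3% of all gene tiles), and their median tile was at 44.2%. Pax2 had 6 tiles under 10%. The lowest, chr19:44756001-44757000, covered the third start with 50 positions and had 3.61, 4.36 and 6.09%. Farther along the gene, from 25.9 to 50.3 kb past the first start, 6 measured tiles were at 43.9 to 58.2%. The highest Pax2 tile, chr19:44817001-44818000, had 59.2, 63.3 and 86.2% on 3 positions, and the widest, chr19:44811001-44812000, ran from 46.9 to 78.3% on 4. The far end of Pax2 was low again: the tile at 89.2 kb had 23 positions and 9.09%, with columns from 6.003 to 10.6%, and the last 2 tiles were at 18.7 and 22.8%. Between the ends, the tiles at 62.3 and 62.5 kb were below 30% as well, at 18.0 and 23.2%, and the tile at 78.9 kb was at 30.9%.

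Pax5, the B cell gene of the group, is the longest at 185947 bp, and no position within 1000 bp of its annotated start was measured. The 4 measured tiles from 4.41 to 8.26 kb inside were at 6.51 to 21.2%. Its lowest tile, chr4:44664001-44665000, lay 46.1 kb inside the gene and had 1.70, 3.13 and 5.69% on 34 positions packed into 160 bp. Its highest, chr4:44557001-44558000, had 61.6, 75.6 and 82.3% on 16 positions and was the highest tile of all Pax loci. The tile next to it, with 29 positions, was at 18.0% with columns from 15.1 to 22.6%. The columns of these neighbouring tiles did not overlap, though the higher tile was picked by its level. The widest spread at Pax5, chr4:44530001-44531000, ran from 40.7 to 80.8% on 6 positions.

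Pax8, which is required for thyroid follicular cells, had no tile under 10%. The lowest, chr2:24472001-24473000, lay 2.95 kb inside the gene and had 18.8, 21.6 and 25.4% on 21 positions. The highest and at the same time the widest, chr2:24443001-24444000, had 47.8, 64.0 and 75.5% on 4 positions. The start itself, chr2:24475599, was not measured, and its promoter sequence held 0 measured positions. Within 1000 bp of it 20 positions were measured, all inside the gene from 24474853 to 24475074. They were at 39.8%, with 31.2, 39.0 and 46.9% over the columns. The non-coding gene Gm13415 overlaps the Pax8 locus. Other genes also overlap the loci of Pax1 (AI646519), Pax2 (Mir6405 and 1700039E22Rik), Pax5 (Mir5120, Gm12462 and 5730488B01Rik) and Pax7 (Gm42334 and Gm46873).

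Pax3 and Pax7 mark the dorsal neural tube, the neural crest and the muscle progenitors of the somites. Their median tile was at 26.8%, and 8 of 41 tiles were at 50% or more. For Pax3 no strand was at hand, and of its gene ends only the right one was measured. The lowest Pax3 tile, chr1:78189001-78190000, lay 7.70 kb inside from that end and had 0.758, 2.37 and 10.03%, the last in column 4. In that column 16 of the 24 positions were at 20 to 21.1%, each on 19 or 20 calls, in the stretch from 78189601 to 78189695. Positions this close can share the same few reads, so they are not separate measurements. Over all 18 positions of that stretch, column 4 was at 18.1% and the other columns lay between 0.567 and 3.19%, with single positions up to 35.7%. Tiles more than 40 kb inside from the right end were at 40.7 to 63.9%, the highest being chr1:78122001-78123000 with 52.4, 65.0 and 72.7%. The widest, chr1:78103001-78104000, ran from 29.9 to 65.6% on 3 positions.

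At Pax7, 14 measured tiles in a row from 11.3 kb inside the gene to -3.27 kb, upstream of its start, were under 30%. The lowest, chr4:139821001-139822000, at the inner edge of that stretch, had 68 positions and 6.69, 8.28 and 10.8%. Of 13 densely measured Pax7 tiles, 10 were at 10 to under 30%, and 1 was under 10%. The highest tile, chr4:139766001-139767000, had 57.9, 62.0 and 73.6%. The widest, chr4:139751001-139752000, ran from 29.3 to 67.0% on 4 positions. The tiles at the far end of the gene, 66.8 kb and more from the start, ranged from 27.7 to 62.9%.

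Pax4 and Pax6 act in the endocrine pancreas, and Pax6 is the gene of eye formation. Pax4 had a single measured tile, chr6:28440001-28441000, with 4 positions before the left gene end. Its columns fell apart: 3 columns (1, 8 and 10) lay between 49.1 and 49.5% and the other 7 between 19.7 and 34.4%, on at least 105 calls each. Pax6 had 14 of its 17 tiles at 10 to under 50%. The lowest, chr2:105675001-105676000, lay 6.74 kb past the first start and had 1.02, 1.78 and 3.90%, and the next tile was at 3.38%. The tiles on either side of this pair were at 15.5 and 15.7%, and the columns did not overlap with those of the pair, which was named for its low level. The highest Pax6 tile, chr2:105696001-105697000, near the far end, had 66.5, 70.1 and 75.7%. The widest, chr2:105687001-105688000, ran from 22.8 to 57.2%. The genes Pax6os1 and Elp4 also overlap the Pax6 locus. Both Pax6 starts listed among the promoter sequences were above the low pair. The first was at 18.4% with columns from 13.7 to 24.1%, and the second at 29.7% with columns from 21.2 to 37.0%, each within 1000 bp.

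Positions within 1000 bp of an annotated start, or of either gene end for Pax3, were set against the rest of the locus for the 7 genes with such positions. Any start missing from the promoter sequences used would be counted in the rest. For 5 of them the start windows were lower in 10 of 10 columns, and the columns did not overlap with those of the rest. This comparison was not made for all genes, so no share stands beside the 5, and whether it is particular to Pax genes was not tested. Pax3 was lower by the most, with 11.9% at the end and 35.01% in the rest. Pax2 had 6.08% against 28.9%, Pax9 7.49% against 22.02%, Pax7 12.4% against 23.7%, and Pax1 11.4% against 21.99%. The Pax9 window held 9 positions, all downstream of the start at 56695471, from 56696333 on. Its 20 counterparts at Pax8 lay inside the gene as given above. The starts of Pax8 and Pax9 themselves were thus not measured, and neither had a measured position within 500 bp. For Pax6 and Pax8 the order was the opposite in 10 of 10 columns, with 25.8% against 18.0% and 39.8% against 30.5%, though the ranges of the columns overlapped. This opposite order depended on the setting, in comparisons chosen after the values were seen. Within 500 bp the Pax6 starts were at 16.9% and the rest at 20.01%, and the starts were lower in 6 of 10 columns. Without the most covered 1% of positions, the Pax8 start window was at 39.8% against 36.6%, and it was higher in 7 of 10 columns. The difference, starts minus rest, ran over the columns from 1.37 to 12.6 points for Pax6 and from 0.671 to 14.8 points for Pax8. The median difference over the 7 genes was -11.3 points. The share of start windows under 10% was smaller for Pax genes than for all genes. Within 1000 bp of the annotated start with most positions, 2 of 6 Pax genes were under 10%, beside 76.4% of 10962 genes. They were Pax2, and Pax9 on its 9 downstream positions. Within 500 bp it was 2 of 4 (Pax1 at 7.19% and Pax2 at 7.99%), beside 83.8% of 10112 genes, and the Pax3 end was at 7.96%. At the gene end with more positions, whichever end that was, 0 of 7 Pax genes were under 10%, beside 68.3% of 14236 genes. Their median there was 13.96%, beside 2.91% over all genes.

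**Figure D4:**
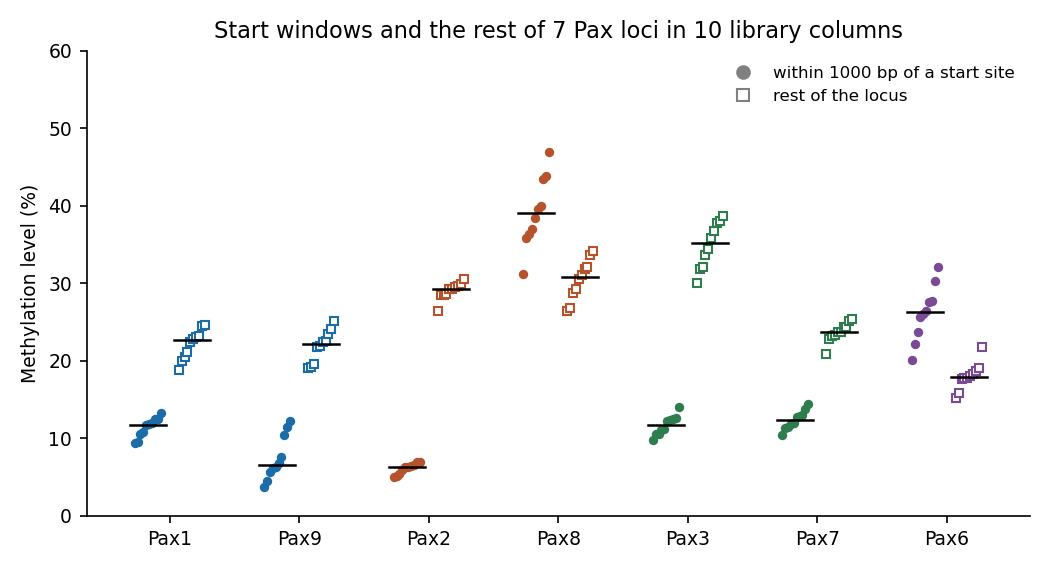
Methylation level in percent (y axis) of positions within 1000 bp of a start (filled circles, for Pax3 of the measured gene end) and of the rest of the locus (open squares) for 7 Pax genes. Each point is 1 of 10 library columns and black bars are medians. The start window is lower without overlap for Pax1, Pax9, Pax2, Pax3 and Pax7, and higher with overlap for Pax8 and Pax6. For Pax8 and Pax9 no position within 500 bp of the start was measured.

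Tiles under 30%, unmethylated ones included, formed long stretches. A stretch was the run with the most measured tiles under a given level, with up to 2 unmeasured tiles bridged. Under 30%, the stretch was 15144 bp at Pax7 (14 tiles), 14474 bp at Pax2 (13 tiles), 13843 bp at Pax6 (11 tiles), 10492 bp at Pax9 (7 tiles) and 10360 bp at Pax3 (6 tiles). It was 5496 bp at Pax1, 4147 bp at Pax5 and 671 bp at Pax8, and Pax4 had none. Stretches of at least 10000 bp were thus found in 5 of the 8 Pax loci with 8 or more measured tiles, beside 0.59% of 4747 loci (28 loci, the 5 Pax loci among them). The median length was 10426 bp at those 8 Pax loci and 920 bp at all 4747 loci. Under 10%, the Pax stretches were no longer than usual, with medians of 593.5 and 655 bp. These lengths hang on the bridging, since measured tiles are rarely contiguous: without it, 0 of 8 Pax loci and 1 of 4747 loci had a stretch of 10000 bp under 30%. Under 20% with bridging, 1 Pax locus (Pax7, 10238 bp) and 9 of all loci had one. The length and the limit of 30% were chosen after the levels were seen.

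**Figure D5:**
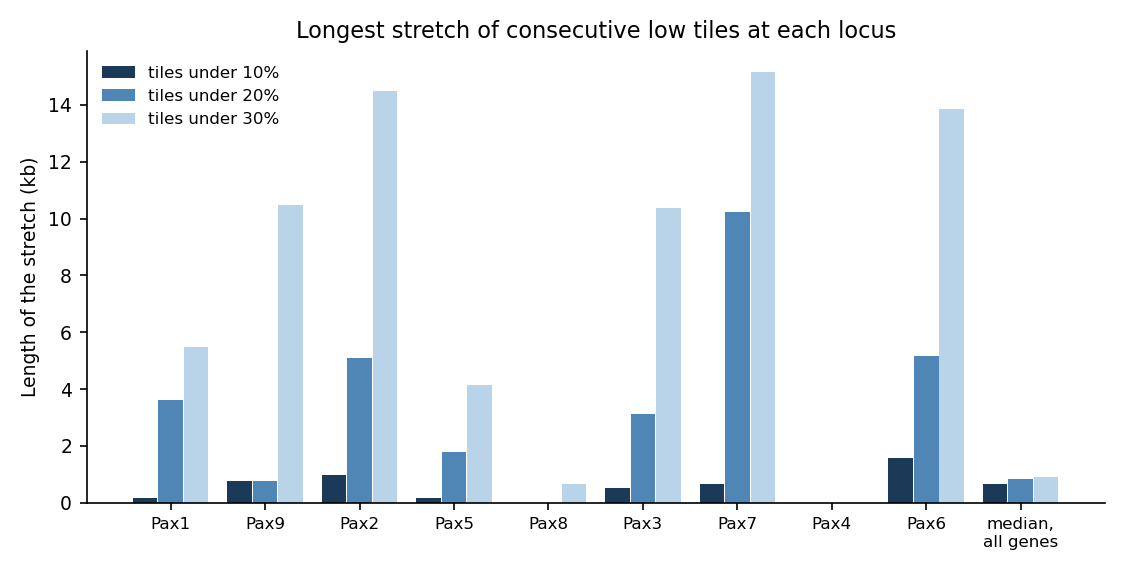
Length in kb (y axis) of the stretch of consecutive low tiles at each Pax locus for 3 limits (shades of blue), with the median of 4747 loci with 8 or more measured tiles at the right. At Pax7, Pax2, Pax6, Pax9 and Pax3 the stretch under 30% is over 10 kb, while that under 10% is 511 to 1586 bp.

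The spread between columns in the tiles of the Pax loci was close to that in the tiles of other genes. With at least 30 calls in every column, 56 of 156 Pax tiles (35.9%) had columns more than 20 points apart, beside 30% of all gene tiles, and the median range was 16.0 beside 15.3 points. Among tiles with 10 or more positions the share was 12.7% at the Pax loci and 10.1% over all genes. Within 1000 bp of the annotated start the Pax spread was wider, with a median range of 6.24 beside 2.83 points over all genes. At the gene end with more positions it was 9.14 beside 3.41 points. The Pax levels were also higher there, and the part of the level in these ranges was not tested. No column was high throughout. Column 1, the one with the highest mean level over all autosomal positions (42.7%), was highest at 4 of the 9 loci (Pax3, Pax4, Pax8 and Pax9) and lowest at Pax1. Column 8, whose mean level was 40.1%, was lowest at 4 (Pax2, Pax5, Pax7 and Pax9). Column 3, the one with the least coverage, was highest at Pax6, where it was the highest column in 6 of 17 tiles. The part of these overall levels and of coverage in the order of the columns was not tested.

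Genes that work with Pax factors were taken from lists of textbook relations, and their levels were read at the gene end with more positions. Of 12 Six-Eya-Dach genes, the network in which Pax factors act in eye, ear, kidney and muscle, 11 were measured, and 9 were under 10% (81.8%, beside the 68.3% of all genes). Their median was 3.71%. Six5 was lowest at 0.798%, with columns from 0.561 to 2.02%, and Eya2 was highest at 68.9%, with columns from 61.5 to 77.7%. Eya2 had no value at an annotated start. At annotated starts 8 of 9 measured genes of this list were under 10% (88.9%, beside 76.4% of all genes), and Six6 was highest at 11.1%. Of 26 target and partner genes, 22 were measured. Of these, 14 were under 10% (63.6%), 6 at 10 to under 50% and 2 at or above 50%, with a median of 6.07%. Met, the receptor gene needed for migrating muscle progenitors, was lowest at 1.10%, with columns from 0.400 to 2.29%. Blk, a B cell kinase gene, was highest at 54.7%, with columns from 46.2 to 64.4%, and had no value at an annotated start. At annotated starts 8 of 15 measured genes of this list were under 10% (53.3%), and Mitf was highest at 71.3%. The median of the 7 Pax genes measured in the same way, 13.96%, was above the medians of both lists. The end read was not always the start, and for Pax2 it was the far end, at 22.9%. At annotated starts the medians were 11.9% for 6 Pax genes, 2.43% for 9 Six-Eya-Dach genes and 8.61% for 15 target genes.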

How the data were processed

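DNA of E7.5 embryos was used for bisulfite libraries per the labels' protocols, whose text also names sperm DNA. Trim Galore, Bismark and methylKit were used with the build mm10, per the submitters' processing notes. What versions and settings they had is not given in the sources used here. For each position and column the deposited raw counts are coverage, methylated and unmethylated calls, per the file headers, and they were used without normalization. Of 2137826 rows, 2 repeated a position and were left out. The column numbers match no single sample title, so the test planned between the groups was not run. Counts were summed over positions and columns per tile, window or locus with Python 3.11.15, numpy 2.4.6, pandas 2.3.3 and scipy 1.17.1, and the summing was tested on simulated data. Gene ends came from the RefSeq gene table of GRCm38, which lists no exons, and starts and strands from RefSeq promoter sequences. Tiles of overlapping genes were counted once in the comparison with all genes. For each Pax gene the tiles at its start, with the lowest and highest level and with the widest range were to be named, and of the lists the lowest and highest gene. The members and lists were chosen with earlier results of these data known.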

Additional observations from a re-analysis of the deposited data

Results flagged for a closer look

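Of 50 Pax measures over the 10 columns, 5 had a column farther from the others than Dixon's test allows at 95%. Chance gives about 1 in 20 for independent measures. These measures overlap, since starts, the rest and single tiles lie within the loci, and some tiles were picked for their wide range. The count of 5 therefore cannot be set against chance. The Pax6 locus was at 24.1% in column 3, with the other columns at 17.7 to 20.6%. The lowest Pax6 tile, chr2:105675001-105676000, was at 3.90% in the same column, with the others at 1.02 to 2.38%. The lowest Pax3 tile, chr1:78189001-78190000, was at 10.03% in column 4, with the others at 0.758 to 3.52%. That value rests largely on the short stretch with 19 or 20 calls per position, which can come from a few shared reads. The highest Pax7 tile, chr4:139766001-139767000, was at 73.6% in column 4, with the others at 57.9 to 66.2%. The part of the Pax2 locus away from its starts was at 26.4% in column 8, below the others at 28.4 to 30.5%.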

How the results depend on the processing

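No paired analysis was possible because the columns carry no group or sample. Leaving out each column in turn kept the share of Pax tiles under 10% at 10.9%, that at 50% or more between 25 and 28.2%, that with a range over 20 points between 30.8 and 35.3%, and the median of starts minus rest between -11.6 and -11.0 points. With at least 20 reads in every column that difference was -9.10 points and the share with a wide range 22.9%, and with positions weighted equally the difference was -13.8 points. With at least 10 positions per tile the shares were 18.3% under 10%, 12.7% at 50% or more and 12.7% with a wide range. Read at annotated starts, or at the other gene end where no start was listed, 9 of 17 target genes were under 10%, in place of 14 of 22. Within 500 bp, starts minus rest of Pax6 was -3.15 points, in place of 7.83. The median stretch of the 9 loci was 511 bp under 10%, 3129 bp under 20% and 10360 bp under 30%. Stretches of 10000 bp were found at 5 Pax loci with tiles under 30% and bridging, at 0 without bridging, at 1 under 20% with bridging and at 0 under 20% without. Of 219 levels of loci and starts recomputed under these and other settings, 201 moved by less than the standard deviation between columns and 18 by more. Most of the 219 left out 1 column of 10, which can barely shift a summed level, so the 201 say little about stability. All 18 larger shifts came from the other settings. The cause of these shifts was not tested. Coverage of 10 reads or more per position limits single CpGs, and the table lists only positions covered in every column.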

Other observations

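Besides the 5 Pax genes, 23 loci of the 28 with a stretch of at least 10000 bp under 30% were found, with unmeasured tiles bridged. They include the Hox genes Hoxb3 (16295 bp), Hoxc6, Hoxd10 and Hoxb9, which set position along the body axis, and the transcription factor genes Ebf3 (15660 bp), Gata3 (13150 bp), Tfap2a (12878 bp), Lhx2 (12406 bp), Lhx5, Nkx2-2, Sp8, Otx1, Hmx2, Zfp503 and Six2. Shh, the gene of a secreted patterning signal, had a stretch of 12326 bp. Further ones were Ltbp4, Nrn1, Rhof, Tnrc18, Adamtsl5 and Bahcc1. The locus levels of the 28 ran from 6.07% at Sp8 to 38.6% at Tnrc18. These loci were chosen by their values, and no test was made.

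Within the target list, Myod1 and Neurog3, the genes of muscle and endocrine commitment factors, were at 20.4 and 22.5% at the gene end with more positions, with columns from 18.8 to 23.4% and from 19.02 to 29.2%. Ebf1, a B cell factor gene, was at 44.0% at that end, and at 19.3% at its annotated start, with columns from 15.4 to 25.2%. Six3 was at 13.8% at one gene end and at 3.79% at its annotated start. These genes were named after their values were seen.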
